A study of Mus musculus with 4 samples.

Results

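Venous endothelial cells line the small veins that drain a tissue, and here they were taken from single-cell libraries of mouse Achilles tendon by the transcripts each cell barcode carried. A barcode was a member when it had at least 2 transcript molecules of Cdh5 and Pecam1 together, which hold endothelial cells to each other, and at least 2 of Selp and Ackr1 together, which mark the venous side of the blood vessels. It also had none of the arterial genes Sema3g, Gja5 and Gkn3, fewer than 2 of the lymphatic genes Prox1 and Mmrn1, and at most 1 of the leukocyte gene Ptprc. Of 36052 barcodes with at least 500 genes, at least 1000 molecules and at most 15% mitochondrial molecules, 496 were members, which is 1.38%. The members were thus chosen by their levels of these genes. The molecules are counted by unique molecular identifiers (UMIs). The values of the genes in this rule are given as a description only.

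The series compared freshly digested tendon of neonatal mice, labelled postnatal day 3, and of adult mice, labelled 6 to 8 weeks old, each without injury (control) and with injury. Each of the 4 groups was 1 library, so no comparison has a replicate and none is tested. The labels do not give the time from injury to collection, whether the age is that at injury or at collection, the number of mice in a library, their strain or their sex. A run of 4 values below gives the neonatal control and neonatal injury libraries first, then those of the adult control and adult injury.

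Postcapillary venules and small veins are where leukocytes leave the blood. Their endothelium keeps P-selectin (Selp) and von Willebrand factor (Vwf) in storage granules, the Weibel-Palade bodies, and releases them within minutes of a stimulus, while E-selectin (Sele) is made anew after cytokine signals. Ackr1 is an atypical chemokine receptor that binds and carries chemokines across the venular wall without signalling through G proteins, and the venous fate itself depends on the nuclear receptor Nr2f2.

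The promoters of 4 genes are shown because Selp and Ackr1 define the members and Sele and Lrg1 are among the genes that set the members furthest apart from other blood endothelial barcodes. Each is the 250 bases before the annotated start, 5′ to 3′ on the strand of the gene, from RefSeq on GRCm38.p6. Capitals mark a match to the NF-kB letters, GGGA and CC with any 4 bases between them, on either strand.
Selp (chr1:164115014-164115263, plus strand): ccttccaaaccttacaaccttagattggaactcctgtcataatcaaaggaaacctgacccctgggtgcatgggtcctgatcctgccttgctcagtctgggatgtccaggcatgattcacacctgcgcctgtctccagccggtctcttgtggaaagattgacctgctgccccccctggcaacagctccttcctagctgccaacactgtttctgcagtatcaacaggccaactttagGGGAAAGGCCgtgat
Sele (chr1:164047984-164048233, plus strand): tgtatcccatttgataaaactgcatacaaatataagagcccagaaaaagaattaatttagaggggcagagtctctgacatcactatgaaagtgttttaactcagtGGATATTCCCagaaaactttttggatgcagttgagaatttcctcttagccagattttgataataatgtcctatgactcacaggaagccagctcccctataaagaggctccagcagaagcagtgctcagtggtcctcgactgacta
Ackr1 (chr1:173333504-173333753, minus strand): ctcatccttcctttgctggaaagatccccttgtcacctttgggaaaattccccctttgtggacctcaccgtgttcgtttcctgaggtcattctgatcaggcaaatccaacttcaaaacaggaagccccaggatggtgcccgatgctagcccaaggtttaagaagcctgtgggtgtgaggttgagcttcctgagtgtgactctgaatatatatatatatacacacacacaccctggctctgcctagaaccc
Lrg1 (chr17:56121947-56122196, minus strand): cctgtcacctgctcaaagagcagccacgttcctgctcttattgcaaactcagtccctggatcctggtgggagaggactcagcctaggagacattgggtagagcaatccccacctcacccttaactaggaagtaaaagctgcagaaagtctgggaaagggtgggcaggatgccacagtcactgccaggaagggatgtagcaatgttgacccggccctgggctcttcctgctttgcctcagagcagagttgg
The promoters of both selectins held 1 NF-kB match each, and those of Ackr1 and Lrg1 held 0, where 17.6% of 32851 promoters of this length hold one. The ETS core GGAA, searched on both strands, occurred 6, 3, 7 and 5 times in Selp, Sele, Ackr1 and Lrg1, and 93.4% of promoters hold it. In both selectins an ETS core lay inside the NF-kB match. The GATA letters AGATAA, also on both strands, were in none of the 4 windows and are in 9.99% of promoters. These are matches of letters and say nothing of binding.

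The libraries held 4625 to 14885 barcodes past the filter, and the members had medians of 18601.5, 8845, 8321 and 8014 UMIs, so the neonate control members were the deepest. The members' UMIs summed to 1177262, 1176846, 1861058 and 1539538, and levels below are counts per 1000000 of these sums (CPM). Intervals are at 95% and cover counting error only. Members with Xist and without Y-linked UMIs made up 0%, 71.4%, 88.6% and 88.8%, and those with Y-linked UMIs and without Xist 84.8%, 19.5%, 0% and 0%. Age and the injury of neonates therefore cannot be told apart from this difference in sex-linked transcripts unless a value within the Y-linked members is given. Scores against simulated doublets marked 9 of 46, 32 of 133, 12 of 201 and 6 of 116 members, and they were kept. These are 19.6%, 24.1%, 5.97% and 5.17% of members, against 8.34%, 11.9%, 4.89% and 3.70% of all filtered barcodes. No 2 libraries shared a member barcode.

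Members were 46 of 10429 barcodes in neonate control, 133 of 14885 in neonate injury, 201 of 6113 in adult control and 116 of 4625 in adult injury. These are shares of 0.441% (0.323 to 0.588), 0.894% (0.749 to 1.06), 3.29% (2.86 to 3.77) and 2.51% (2.08 to 3.00) by exact binomial intervals. As shares of barcodes that passed the endothelial, lymphatic and leukocyte parts of the rule, they were 6.53% (4.82 to 8.62), 7.73% (6.51 to 9.09), 19.6% (17.2 to 22.1) and 16.1% (13.5 to 19). Both adult shares lay above both neonatal ones on either denominator. Since the rule needs 2 UMIs of genes with few UMIs, each barcode was also thinned to 3000 UMIs before the rule was applied, which gave 5.20%, 7.37%, 20.5% and 15.2% of blood endothelial barcodes. The order of the libraries was the same, and the gap between the ages was as wide without the extra depth of the neonate control. Between the 2 libraries of each age the intervals on the blood endothelial denominator overlapped. Digestion and capture set these shares as well as the tissue, and their part was not tested.

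**Figure D1:**
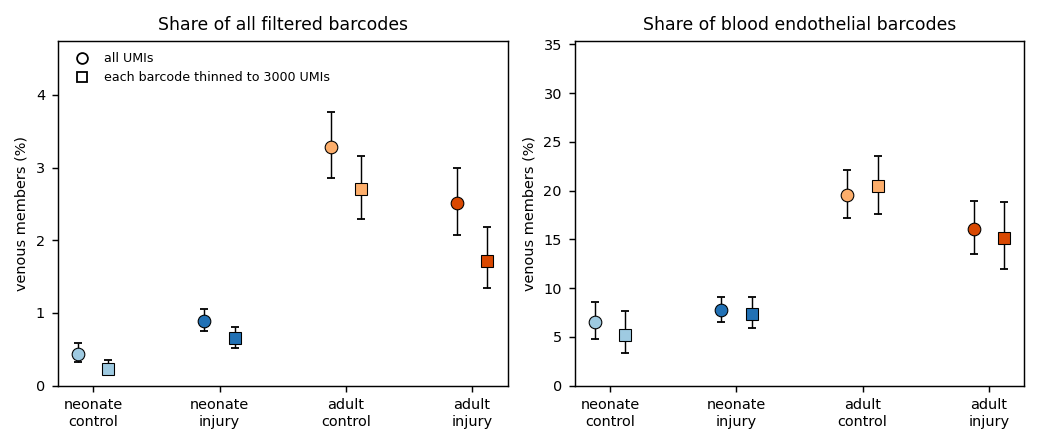
Share of barcodes that met the venous rule in each library (y axis, percent), of all filtered barcodes (left) and of blood endothelial barcodes (right). Circles use all UMIs and squares each barcode thinned to 3000 UMIs, with bars for exact binomial 95% intervals. On the right the adult libraries are at 15.2% to 20.5% and the neonatal ones at 5.20% to 7.73%.

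Both genes of the venous part of the rule were present in 19.6%, 33.1%, 68.7% and 51.7% of members. The Selp level was 519.9, 879, 2724 and 1609 CPM and the Ackr1 level 37.4, 184, 503 and 167 CPM. Both were lowest in neonate control and highest in adult control, with the injured libraries between them. A member had a median of 5.5, 4, 9 and 6.5 Selp UMIs, and the highest member 101, 77, 231 and 146. At the edge of the rule, 28, 75, 43 and 47 barcodes met the other conditions with 1 UMI of Selp and Ackr1, and 6, 29, 19 and 24 members had exactly 2. Vwf, which the rule does not use, was at 28.2, 99.2, 323 and 44.2 CPM in the barcodes with 1 UMI, at 73.3, 90.1, 738 and 101 CPM in members with 2, and at 81.3, 285, 848 and 380 CPM in members with 5 or more. In the members with 3 or 4 UMIs it was at 23.4, 279, 600.2 and 175 CPM. The Vwf level was higher in members with 2 UMIs than in barcodes with 1, with separate intervals, in both adult libraries, while in both neonatal libraries these intervals overlapped. In neonate control the members with 3 or 4 UMIs were no higher than the barcodes with 1.

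The 2 genes did not select the same cells. In 57 members (7, 30, 11 and 9) Ackr1 was present without Selp, and these barcodes carried fibroblast transcripts. Cdh5 and Pecam1 together had medians of 2, 5.5, 5 and 5 UMIs in them, against 43, 24, 18 and 18 in the 439 members with Selp. At least 1 UMI of Vwf, Sele or Lrg1 was found in 19 of the 57 and in 401 of the 439. Conversely, at least 2 UMIs of Pi16 and Dpp4, which mark adventitial fibroblasts, were found in 30 of the 57 and in 14 of the 439. Pi16 was at 177, 495, 2623 and 1349 CPM in the members without Selp and at 2.14, 6.56, 29.7 and 18.9 CPM in those with it. Col1a1, the main collagen chain of tendon, was at 8566, 16774, 1014 and 23969.7 CPM and 1298, 1186, 636 and 6026 CPM. The members without Selp were not of 1 kind in the 4 libraries. In neonate control and adult injury Vwf, Sele and Lrg1 were all at 0 in them, whereas 11 of 30 in neonate injury and 8 of 11 in adult control had a UMI of one of the 3. In those libraries Vwf was at 126 and 308 CPM in them, above the 13.8 and 75.5 CPM of the other blood endothelial barcodes described below. Sele was at 11.4 and 13.7 CPM and Lrg1 at 22.8 and 144 CPM.

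Many Ackr1 UMIs lay outside the members: 80.1%, 76.0%, 41.7% and 52.6% of those in filtered barcodes were in barcodes without a UMI of Cdh5 or Pecam1, and 4.08%, 12.3%, 50.6% and 27.9% were in members. For Selp, 57.8%, 78.2%, 90.1% and 74.3% were in members. RefSeq on GRCm38.p6 has Ackr1 overlapping Cadm3, with both on the minus strand of chromosome 1 and with nearly the same 3′ end. Reads of the 2 genes may not be separable in a 3′ assay, so Ackr1 counts are uncertain. Cadm3 was at 148, 91.4, 123 and 80.6 CPM in the members without Selp and at 6.43, 27.3, 56 and 52.6 CPM in those with it. Of the members without Selp, 5 of 7 in neonate control and 7 of 9 in adult injury had at least 2 UMIs of Pi16 and Dpp4. Most of them in these libraries thus go against the venous label, as do some in neonate injury and adult control. A neonate control member without Selp, however, had 66 Cdh5 and 45 Pecam1 UMIs. The 57 held 20.7%, 22.3%, 7.85% and 20.9% of the members' UMIs. Results below are therefore given for all 496 members and, after them, for the 439 Selp-positive members, an alternative chosen after these values were seen.

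**Figure D2:**
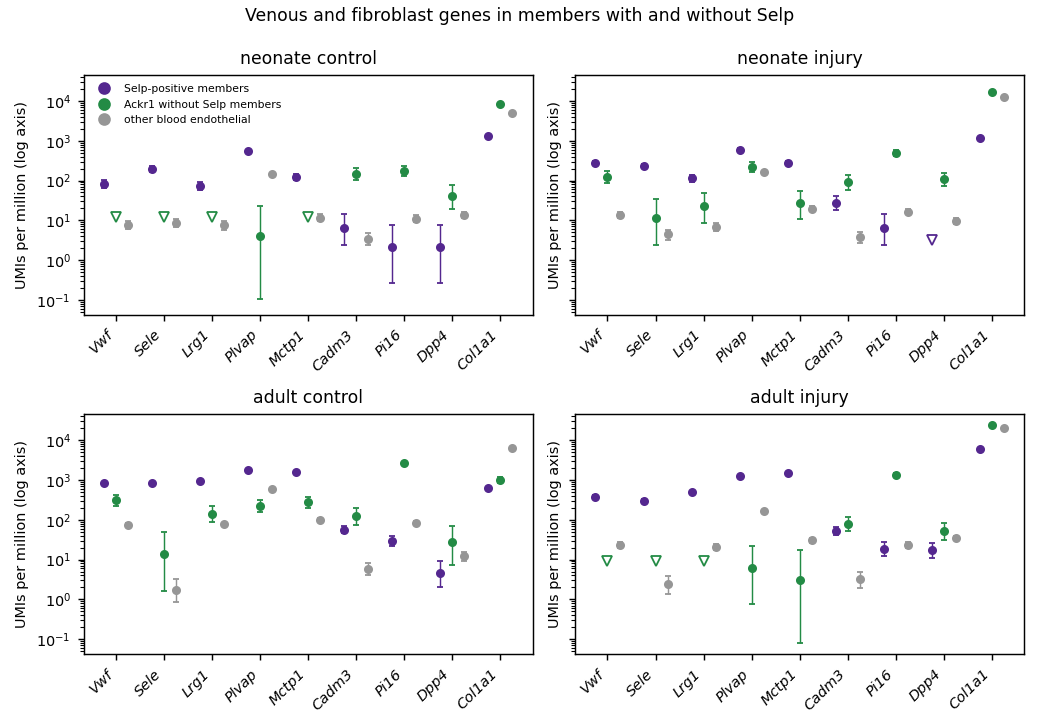
Level of venous and fibroblast genes (y axis, CPM, log axis) in Selp-positive members, in members with Ackr1 and no Selp, and in other blood endothelial barcodes, one panel per library. Points are levels with exact Poisson 95% intervals, and open triangles mark a gene at 0, drawn at the level of 3 counts. Vwf, Sele and Lrg1 are at 0 in the members without Selp in neonate control and adult injury, where their Pi16 level is 177 and 1349 CPM.

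Of the 4 venous markers only Vwf is not a gene of the rule, and it was above the level of the other blood endothelial barcodes in every library. All 9 general endothelial markers, of which the rule uses Cdh5 and Pecam1, were detected in the members of every library. Platelets also carry Selp, and the 8 platelet markers summed to 17, 30.6, 16.1 and 26.6 CPM in the members and to 81.4, 60.8, 8.59 and 59 CPM in the other blood endothelial barcodes, so only in adult control was the sum higher in members. Ppbp, Gp6 and Treml1 were at 0 in all 4 libraries, and Pf4 and Itga2b were detected in all 4. The 6 lymphatic markers, 2 of which the rule limits, summed to 37.4, 34.0, 22.6 and 119 CPM in the members and to 251 to 540 CPM over all filtered barcodes. Fibroblast RNA was the largest foreign part: its 10 markers, none of them at 0, summed to 9092, 12788, 4197 and 27009 CPM. Erythroid markers summed to 1857, 5652, 49.4 and 1662 CPM, and Schwann cell markers to 64.6, 1269, 19.3 and 59.1 CPM. Mural cell markers summed to 793, 811, 483 and 1192 CPM and chondrocyte markers to 938, 16.1, 197 and 34.4 CPM. The 5 B lineage markers summed to 796, 1654, 2593 and 2332 CPM, of which Ebf1, a transcription factor gene, gave 794, 1651, 2591 and 2324 CPM. Cd79a, Cd79b and Ms4a1 had at most 10 UMIs each in any library. The part of these cells in the results was not tested. A gene whose level in the members of its higher library was below that over all barcodes of the library can be free RNA. The counts of the gene lists include such genes, and their number is given below for only some of the lists.

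The nearest population was the other blood endothelial barcodes, 2895 in all, which passed the same filters with no Selp, Ackr1 or arterial UMI. The members were split from them by Selp and Ackr1 in these same cells, so what follows describes the split and tests nothing. Of 11525 genes with enough counts in every library, 80 (0.694%) were at least 2-fold higher in members in all 4 libraries and 81 (0.703%) at least 2-fold lower. In the Selp-positive members 268 were lower, and the other blood endothelial barcodes carried more fibroblast RNA than the members in every library (fibroblast markers at 14711, 29432, 22220 and 51613 CPM). Of 19 venous and postcapillary genes measured, the gate genes left out, 8 were 2-fold higher in all 4 libraries and 0 were lower. They were Sele, Vwf, Lrg1, Plvap, Ptgs1, Csf2rb, Tmem252 and Amigo2.

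E-selectin stood furthest apart. Sele was at 155, 182, 788 and 240.3 CPM in members and at 8.45, 4.41, 1.75 and 2.43 CPM in the other blood endothelial barcodes, which gives log2 ratios of 4.19, 5.36, 8.74 and 6.58. A Sele UMI was found in 63, 36.8, 59.2 and 50.9% of members and in 4.73, 1.18, 1.27 and 2.25% of the others, and after thinning to 3000 UMIs in 37.8%, 22.5%, 51.4% and 36.0% against 1.49%, 0.460%, 0.437% and 1.67%. Vwf, the carrier of factor VIII and tether of platelets, was at 63.7, 241, 811 and 299 CPM against 7.8, 13.8, 75.5 and 23.7 CPM. Lrg1, a secreted glycoprotein that alters TGF-beta signalling in vessels, was at 57.8, 93.5, 867 and 385 CPM against 7.48, 6.84, 76.8 and 20.8 CPM. For these genes the level in members lay above that in the other blood endothelial barcodes of the same library, in all 4 libraries. Next came Mctp1, a membrane protein of the endoplasmic reticulum with calcium-binding C2 domains, at log2 ratios of 3.05, 3.5, 3.9 and 5.31. Slco2a1, the prostaglandin transporter, was at 2.08, 2.93, 2.1 and 2.68, and Ptgs1, the constitutive cyclooxygenase that makes prostaglandin H2, at 1.99, 2.02, 2.54 and 2.45. Plvap, which forms the diaphragms of fenestrae and caveolae in permeable vessels, was at 1.55, 1.67, 1.54 and 2.63. Csf2rb, the shared chain of the GM-CSF, interleukin 3 and interleukin 5 receptors, and the protease inhibitor Spint2 were also higher in every library, with their smallest log2 ratios at 1.69 and 1.85.

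On the low side, Cxcl12, a chemokine that holds cells bearing Cxcr4, was at 38.2, 102, 352 and 404 CPM in members and 142, 338, 1007 and 611 CPM in the others, although in adult injury the gap was a log2 ratio of -0.60. The capillary transcription factor gene Tcf15 was at log2 ratios of -0.68, -0.88, -2.43 and -1.44, the phosphatase Ptp4a3 at -1.03, -1.83, -2.21 and -1.42, the chloride channel protein Clic5 at -0.96, -2.07, -1.78 and -1.49 and plakoglobin (Jup), a linker of cadherins to the cytoskeleton, at -0.88, -1.0, -2.19 and -0.92. The other genes that the naming rule picks at this end were Plekha1, Plcl1, Anxa6, Nudt4 and Tspan6. Of these low genes picked by the rule, only Ptp4a3 was at least 2-fold lower in every library. None of the 15 capillary genes was higher in all 4 libraries, and of the 13 arterial genes Cxcr4 and Unc5b were 2-fold lower in all 4.

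**Figure D3:**
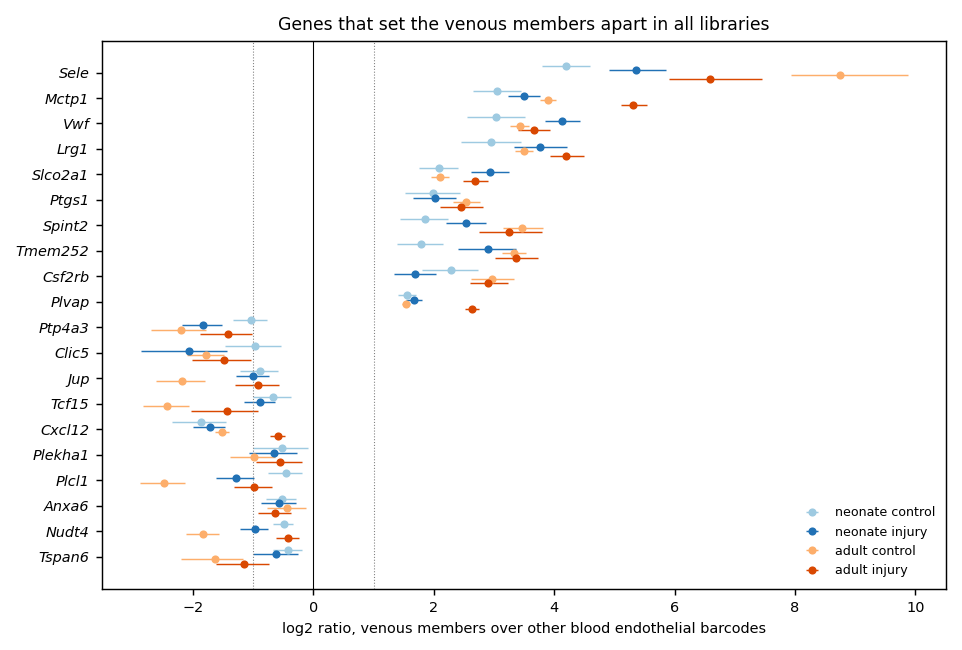
Log2 ratio of the level in venous members over that in other blood endothelial barcodes (x axis) for the 10 genes in each direction that the naming rule picks. The rule keeps genes with at least 50 CPM in either population of every library and leaves out possible free RNA. Each library has one point with its 95% counting interval, and dotted lines are at 2-fold. Sele runs from 4.19 in neonate control to 8.74 in adult control, and the picked genes at the low end lie closer to 0. Of the 81 genes at least 2-fold lower in every library, only Ptp4a3 is shown.

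The age comparison set neonate control over adult control, so a positive log2 ratio is higher in the neonate. It asked how venous endothelium of uninjured tendon differs between postnatal day 3 and 6 to 8 weeks. The venous and postcapillary genes were mostly lower in the neonate: of 20 measured, 14 were at least 2-fold lower and 2 higher, where 13.6% of 10250 genes were 2-fold lower and 13.5% higher. Their median log2 ratio was -1.98 (-1.76 in Selp-positive members), against 0.06 over all genes. Scaling by the median of ratios instead of total UMIs shifts all log2 ratios of age by 0.13. Vwf differed by -3.66 (-4.02 to -3.33), from 63.7 to 811 CPM, and the neonatal and adult intervals did not overlap. Lrg1 stood at -3.9 (-4.28 to -3.56), and Bst1, an ectoenzyme that acts in leukocyte trafficking, at -3.75 (-6.27 to -2.36). Tmem252 stood at -2.68 (-3.02 to -2.36). Aplnr, the apelin receptor, was on the other side at 1.21 (0.90 to 1.53). Ackr1 was at -3.74 (-4.58 in Selp-positive members) and Selp at -2.39 (-2.17), both used by the rule.

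Storage and clotting genes were also more often lower than higher in the neonate. Of 9 Weibel-Palade body genes, 5 were 2-fold lower in the neonate and 1 higher (Selp-positive members 5 and 1). Among the lower ones, Selp is a gene of the rule and Vwf was already counted in the venous list. Edn1, the precursor of the vasoconstrictor endothelin 1, which is stored in these granules, was at 10.2, 45, 212 and 119 CPM, the lowest in neonate control and the highest in adult control. Its ratio was -4.32 (-5.34 to -3.56). Rab27a, the small GTPase that anchors the granules, was at 11, 9.35, 135 and 41.6 CPM, with both neonatal libraries low, and its ratio was -3.56 (-4.55 to -2.82). Myrip, which links Rab27a to myosin and actin, had 1 UMI in neonate control and 189 CPM in adult control, a ratio of -7.21 (-13.1 to -5.31). Of 15 genes of anticoagulant, fibrinolytic and platelet control, 6 were lower and 2 higher. Of the lower ones Ptgs1, also in the venous list, had the largest ratio at -2.2. Entpd1, the ectonucleotidase that removes platelet-activating ADP, was next at -2.01. F2r, the thrombin receptor, was higher at 2.31.

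Of 15 adhesion genes, 5 were 2-fold lower in the neonate and 0 were higher. Besides Selp they were Sele at -2.35 (-2.58 to -2.13), Vcam1, the ligand of the integrin VLA-4, at -2.0 (-2.47 to -1.58), and the junctional adhesion molecule Jam2 and the diapedesis gene Cd99l2 at -1.62 and -1.37. Selp is a gene of the rule, and Sele and Vcam1 were already counted in the venous list. Sele is set by new synthesis, and its level of 788 CPM in uninjured adult members is a value of freshly digested cells. Icam1, the ligand of the leukocyte integrin LFA-1, was at 638, 402, 818 and 375 CPM and did not differ 2-fold between the ages. Il1r1 and Il6st, receptor chains for interleukin 1 and for the interleukin 6 family, were at -2.22 and -2.15. They were named after their values were seen. Of the 2 vasoactive receptors among the 10 genes furthest down, Hrh1, the histamine H1 receptor through which venules become leaky, was at 0 in neonate control and 51.6 CPM in adult control, at least 20.2-fold lower at a floor of 3 counts. Tacr1, the receptor of substance P, had 1 UMI in neonate control and 99.9 CPM in adult control, a ratio of -6.3 (-12.19 to -4.38).

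Antigen presentation and interferon genes were lower in the neonate as well. Of 11 MHC class I presentation genes, 9 lay at least 2-fold below the adult level and 0 above it, and the median was -1.45 (-1.28 in Selp-positive members). H2-K1, which presents peptides to CD8 T cells, was at 127, 540.4, 925 and 662 CPM, with neonate control the lowest by far, and the nonclassical H2-T23 at 9.34, 35.7, 220.3 and 48.1 CPM. Their ratios were -2.86 (-3.12 to -2.63) and -4.5 (-5.57 to -3.7), and in other blood endothelial barcodes -1.9 and -2.83. The H2 genes are near copies of one another and their counts are uncertain to that extent. Of 16 interferon response genes, 8 were lower and 0 higher. Gbp4, a guanylate-binding protein, was at -3.61 (-5.19 to -2.56) and Ifit3, an adaptor in antiviral RNA sensing, at -3.52 (-6.05 to -2.12). Sp100, a nuclear body protein that interferon raises, was at 5.1, 81.6, 194 and 145 CPM and a ratio of -5.14 (-6.71 to -4.11).

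The gene with the lowest ratio was Fmo2, a flavin monooxygenase that oxidises drugs and thiols. It was at 1.7, 10.2, 882 and 75.3 CPM, so that adult control alone was high, and its ratio was -8.7 (-12.07 to -7.16) with 2 UMIs in neonate control. Fgl2, a prothrombinase of endothelium and macrophages, was at -5.29 (-6.86 to -4.27), Pltp, the phospholipid transfer protein, at -5.03 (-6.34 to -4.13) and Xdh, the xanthine dehydrogenase, at -4.96 (-6.53 to -3.93). Rasgrf2 and Enpp6 completed the 10 at -5.06 and -4.91. Fmo2, Rasgrf2 and Xdh had ratios of -6.72, -5.03 and -4.88 in other blood endothelial barcodes. Hrh1 and Fgl2 had -0.23 and -1.06 there. Whether the populations differ in these was not tested.

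Genes of cell division and vessel growth were higher in the neonate. All 18 measured G2M genes were 2-fold higher, with a median of 6.12, or 5.07 with the 4 that were at 0 in adult control set to the bound of 3 counts. Mki67, the proliferation marker, was at 155, 47.6, 5.37 and 39.6 CPM and Top2a, which untangles replicated DNA, at 181, 78.2, 1.61 and 33.8 CPM. Adult control was the lowest in both. Members with at least 2 G2M UMIs made up 35.6% (21.9 to 51.2), 22.5% (15.4 to 31.0), 1.68% (0.347 to 4.82) and 12.0% (6.36 to 20.02) after thinning to 3000 UMIs, and 58.7%, 30.1%, 4.48% and 26.7% without it. In other blood endothelial barcodes the thinned shares were 38.5%, 16.6%, 0.655% and 15.3%. Of the 10 highest genes 7 were of this kind, with Pclaf, Cenpf, Cdca3, Kif15 and Ccna2 at 0 in adult control. The remaining ones were Prnd, which encodes the prion-like protein doppel, at 8.03 (6.12 to 13.92), and Col10a1 and Crabp2, with 100% and 78.8% of their neonate control UMIs in 1 barcode.

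Of 13 tip cell and angiogenic genes, 10 were 2-fold higher in the neonate and 0 lower (median log2 ratio 2.43 and 2.6 in Selp-positive members). Apln, the apelin ligand of sprouting endothelium, was at 159, 119, 7.52 and 63 CPM, high in both neonatal libraries, and a ratio of 4.35 (3.62 to 5.3). Esm1, a proteoglycan of tip cells, was at 36.5, 2.55, 0.537 and 1.3 CPM, with neonate control alone above the others. Of 13 basement membrane genes, 9 were higher and 2 lower. Of the higher ones, Col4a1, Col4a2, Lamb1 and Nid2 were already counted as tip cell genes. Col4a1, a chain of the collagen network under the endothelium, was at 2589.9, 2382, 264 and 1264 CPM, with adult control the lowest and 3.29 between the controls. Lama5, the laminin chain that limits leukocyte passage through venules, was on the other side at 10.2, 15.3, 63.9 and 46.1 CPM and -2.6 (-3.64 to -1.79). Among the junction genes Cldn5, the tight junction claudin of endothelium, was at 595, 272, 34.9 and 87.7 CPM with both neonatal libraries above both adult ones, and its ratio was 4.08 (3.72 to 4.48). Ehd4, a membrane-shaping ATPase of endosomes and caveolae, stood at -2.43, and the orphan receptor Gpr182 at -2.72.

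The capillary genes Btnl9 and Gpihbp1, the anchor of lipoprotein lipase, were at 3.56 (2.21 to 5.66) and 2.9 (2.64 to 3.18), and 5 of 15 capillary genes were 2-fold higher in the neonate and 2 lower. Of 12 VEGF, Tie and ephrin receptor genes 2 were higher and 3 lower, with Ptprb, the phosphatase that restrains Tie2, at -1.92. All 11 cholesterol synthesis genes measured and 11 of 12 imprinted growth genes had levels in the members below those over all barcodes and can be free RNA. Their 9 and 10 higher members are given only as counts. The exception was Mest, at 984, 529, 7.52 and 138 CPM and a ratio of 6.98 (6.28 to 7.91), and 3.9 in other blood endothelial barcodes.

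**Figure D4:**
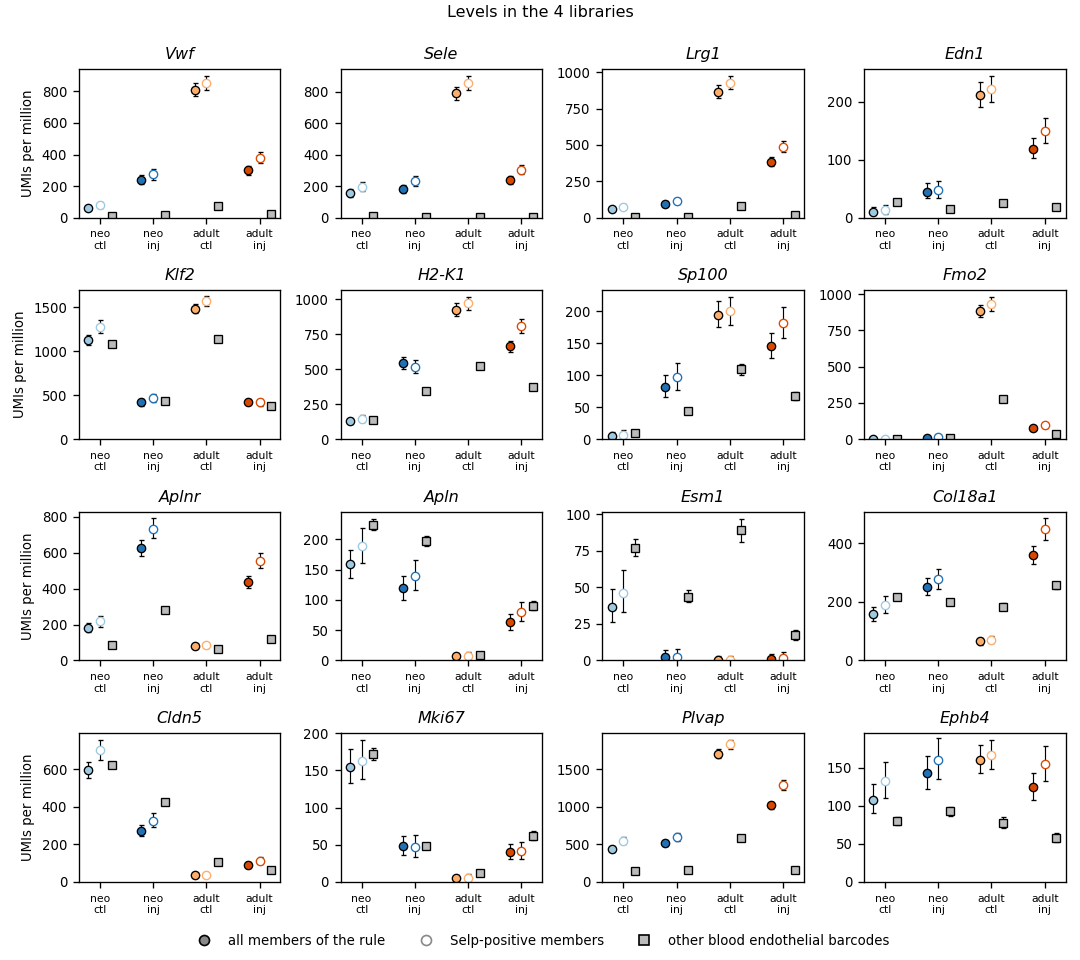
Levels of 16 genes (y axis, CPM) in the 4 libraries, for all members, Selp-positive members and other blood endothelial barcodes, with exact Poisson 95% intervals. Vwf, Sele, Lrg1 and Edn1 are highest in adult control, Klf2 is near 420 CPM in both injured libraries, and Aplnr is higher in each injured library than in its control.

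In adults, injury over control asked what differs in venous endothelium of injured tendon. Of 20 venous genes, 7 lay 2-fold or more below control and 1 above it (5 and 2 in Selp-positive members). Over all 10598 genes 6.91% were lower and 12.8% higher. The median of the venous genes was -0.60 (-0.39 in Selp-positive members). In other blood endothelial barcodes it was -0.55, so the median shift was not particular to the members. The lower members with the largest ratios were Amigo2, an adhesion molecule of the neuronal type, at -2.18 (-2.98 to -1.52), Sele at -1.71 (-1.88 to -1.55) and Tmem252 at -1.7 (-1.92 to -1.49). Vwf was at 811 CPM in control and 299 CPM in injury, a ratio of -1.44 (-1.59 to -1.29), and Lrg1 was at -1.17. The higher member was Aplnr at 2.49 (2.23 to 2.76), from 77.9 to 438 CPM, while in other blood endothelial barcodes its ratio was 0.89. This comparison and the age comparison share the adult control, so a low level in the one and in the other is not independent.

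Growth and matrix genes were higher with injury, and so were markers of other cells. The fibroblast markers summed to 4197 CPM in adult control and 27009 CPM in adult injury and the mural markers to 483 and 1192 CPM. In Selp-positive members Col1a1 was at 636 and 6026 CPM. The part of these cells in the matrix genes was not tested. Of 12 tip cell genes, 7 were 2-fold higher and 0 lower (median 1.45, and 1.5 in Selp-positive members). Of the 7, Col4a1, Col4a2, Lamb1 and Nid2 are counted again in the basement membrane list, and 4 of the 12 can be free RNA. Apln was at 3.02 (2.25 to 3.99). Of 13 basement membrane genes 10 were higher and 0 lower, or 8 and 0 in Selp-positive members. Col18a1, the source of endostatin, was at 158, 252, 65.6 and 359.8 CPM, highest in adult injury, with a ratio of 2.45 (2.17 to 2.75), Col4a1 at 2.26 and Col4a2 at 1.74. For 5 of the 13, Sparc among them, the level over all barcodes of the library was higher, so they can be free RNA. All 11 G2M genes measured were higher and all of them can be free RNA by the same measure. The share of members with at least 2 G2M UMIs, given above, was 12.0% against 1.68%. Fscn1, the actin bundler fascin of cell protrusions, was at 2.95 (2.48 to 3.48) and Fblim1, a filamin-binding protein of adhesions, at 3.34 (2.5 to 4.45). Agbl3, a tubulin carboxypeptidase, stood at 2.69.

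Some of the genes furthest apart rested on few barcodes or on the fibroblast-rich ones. A single barcode held 65.0% of the Spon1 UMIs of adult injury, another 41.2% of its Timp1 UMIs at 2.92 (2.6 to 3.27), and one 73.0% of the Uchl1 UMIs of adult control. Without the members lacking Selp, Spon1 moved from 5.16 to 3.84, Htra3 from 2.61 to 0.63, Cd248, a fibroblast and pericyte gene, from 2.88 to 1.91 and Uchl1 from -2.88 to -0.47. Aplnr, Apln, Fscn1, Fblim1 and Col18a1 were at 2.72, 3.24, 3.13, 3.32 and 2.65 in Selp-positive members, close to their values over all members.

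On the low side in adult injury stood Fmo2 at -3.54 (-3.83 to -3.28) and Fmo1 at -2.63 (-3.1 to -2.21), both flavin monooxygenases, Apoe, the lipoprotein ligand, at -2.81 (-2.96 to -2.66) and Pltp at -2.74 (-3.19 to -2.34). Apoe was at 119, 248, 1843 and 263 CPM in members, with adult control high, and at a ratio of 0.13 in other blood endothelial barcodes. Wipf3, a regulator of actin nucleation, was at -3.74, Hlf, a clock-output transcription factor, at -2.76, Net1, an exchange factor for RhoA, at -2.75, Myrip at -2.53 and Arl4d at -2.4. Ackr4, a scavenger of Ccl19 and Ccl21, was at 0 in adult injury and 34.4 CPM in adult control, but its level over all barcodes was higher.

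Of 13 immediate early genes 4 were 2-fold lower and 0 higher, and 6 of the 13 can be free RNA. Ier3, a survival gene induced by stress, was at -1.85 (-1.98 to -1.73) and Ier2 at -1.54. Klf2, which laminar flow induces in endothelium, was at 1128, 416, 1486 and 419.6 CPM in members and 1082, 436, 1143 and 379 CPM in other blood endothelial barcodes, low in both injured libraries of both populations. Its ratio was -1.82 (-1.95 to -1.7) in adults and -1.44 (-1.59 to -1.29) in neonates, the second with a level over all barcodes above that in the members. Tissue digestion also induces genes of this class, and its part was not tested. Id1, a target of BMP signalling, was at -1.66 and Id3 at -1.3, among 4 of 16 BMP, TGF-beta and Notch genes that were lower. Of 11 MHC class I genes 3 were lower and 0 higher, or 2 and 1 in Selp-positive members. Of 16 interferon genes 2 were lower and 1 higher, or 0 and 2 in Selp-positive members, with medians of -0.15 and 0.11. Of 5 MHC class II genes 4 were higher, all of them possible free RNA. Of 16 NF-kB and cytokine genes 3 were higher and 2 lower, and 6 of the 16 can be free RNA. Csf3, the neutrophil growth factor G-CSF, was at -2.09 (-2.61 to -1.62) and Il6 at 1.25 (1.04 to 1.47), in opposite directions.

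In neonates, injury over control set few venous genes 2-fold apart. Of 19 venous genes 2 were 2-fold higher and 0 lower, where 8.2% of 9714 genes were higher and 8.54% lower, and the median was 0.53 (0.46 in Selp-positive members). The higher genes were Vwf at 1.91 (1.55 to 2.31) and Aplnr at 1.78 (1.56 to 2.01). Within members with Y-linked UMIs and no Xist, 39 in control and 26 in injury, they were at 1.99 and 1.74. Of 95 gene ratios of this comparison, 36 left their counting interval within the Y-linked members, and 3 of 22 list medians moved. Most genes named below have no such value, and for them injury cannot be told apart from the difference in sex-linked transcripts. Edn1 was at 2.1 (1.22 to 3.18) and, within the Y-linked members, at 2.24. Ackr1 was at 2.28 (2.66 in Selp-positive members), and it is a gene of the rule.

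Interferon genes were the list with the largest share on the high side. Of 16, 7 were 2-fold higher and 0 lower. Their median was 0.86 (0.68 in Selp-positive members), and within the Y-linked members the median was 1.98. Gbp4 was at 5.1, 34.8, 67.2 and 58.5 CPM, so that neonate control alone was low, and its ratio was 2.68 (1.53 to 4.3). Ifit3 and Ifit1, of the interferon-induced family with tetratricopeptide repeats, were at 2.75 (1.21 to 5.32) and 3.49 (2.48 to 4.94), the latter 2.43 in Selp-positive members, and Oasl2, a relative of the oligoadenylate synthetases, at 2.57 (1.56 to 3.93). Sp100 was the highest named gene at 3.89 (2.83 to 5.48). H2-K1 was at 2.09 (1.83 to 2.36) and 3.12 within the Y-linked members, one of 2 of 11 MHC class I genes that were 2-fold higher. In other blood endothelial barcodes Sp100 and Gbp4 had ratios of 2.17 and 1.55, and the list median was 0.07. The neonate control, the base of this comparison, also stood in the age comparison.

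The other genes at the high end were of mixed kinds. Pltp was at 2.81 (1.81 to 4.16), the tolloid-like protease Tll1 at 2.78 (2.21 to 3.44), the Notch ligand Dll1 at 2.57 (1.7 to 3.7), and the transporters Slco2b1 and Abcb1a, a drug efflux pump of the blood-brain barrier, at 2.46 and 2.41. Pgm5, Adamts18 and Plekha7 were at 2.94, 2.38 and 2.3.

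Heat shock and division genes were lower with injury in the neonate. Of 10 heat shock genes 8 were 2-fold lower and 0 higher. Their median was -1.35, and also -1.35 in other blood endothelial barcodes, and 6 of them can be free RNA. Dnajb1, a co-chaperone of Hsp70 that is above the all-barcode level, was at -1.1. Hspa1a, the inducible Hsp70, was at -3.53, and since it and Hspa1b are near copies the counts of the pair are uncertain. Of 19 G2M genes 13 were 2-fold lower and 0 higher (median -1.21, and -1.02 within the Y-linked members). The thinned shares of members with at least 2 G2M UMIs, 35.6% and 22.5%, however overlapped in their intervals. In other blood endothelial barcodes the G2M median was -1.45, so neither fall was particular to the members. Of 13 tip cell genes 5 were lower and 0 higher. Esm1 stood at -3.64 (-6.17 to -2.2), Adm, the precursor of adrenomedullin, at -2.09 and Pgf, the placental growth factor, at -1.79, while Apln and Col4a1 at -0.42 and -0.12 did not differ 2-fold. Unc5b, the repulsive netrin receptor, was at -3.04 (-6.46 to -1.28) and Csf3 at -2.34. Lower by rule were also Spink2 at -3.7, Fhl2 at -3.31, Anxa8 at -2.96, Zfp622 at -2.57 and Asf1a at -2.52. Selp-positive members of neonate control held only 7 of its 71 Spink2 UMIs and 8 of its 136 Anxa8 UMIs. A single barcode held 38.0% of the Spink2 UMIs, and a single barcode 40.4% of the Anxa8 UMIs. Col10a1, Crabp2, Ccn2 and Timp1 had at least 53.7% of their neonate control UMIs in 1 barcode. Uchl1, Ccn2 and Timp1 moved from -2.75, -2.9 and -2.59 to -0.87, -1.65 and -1.59 in Selp-positive members. Crabp2, at -3.95 over all members, had 0 UMIs in the Selp-positive members of both neonatal libraries and so no ratio there.

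**Figure D5:**
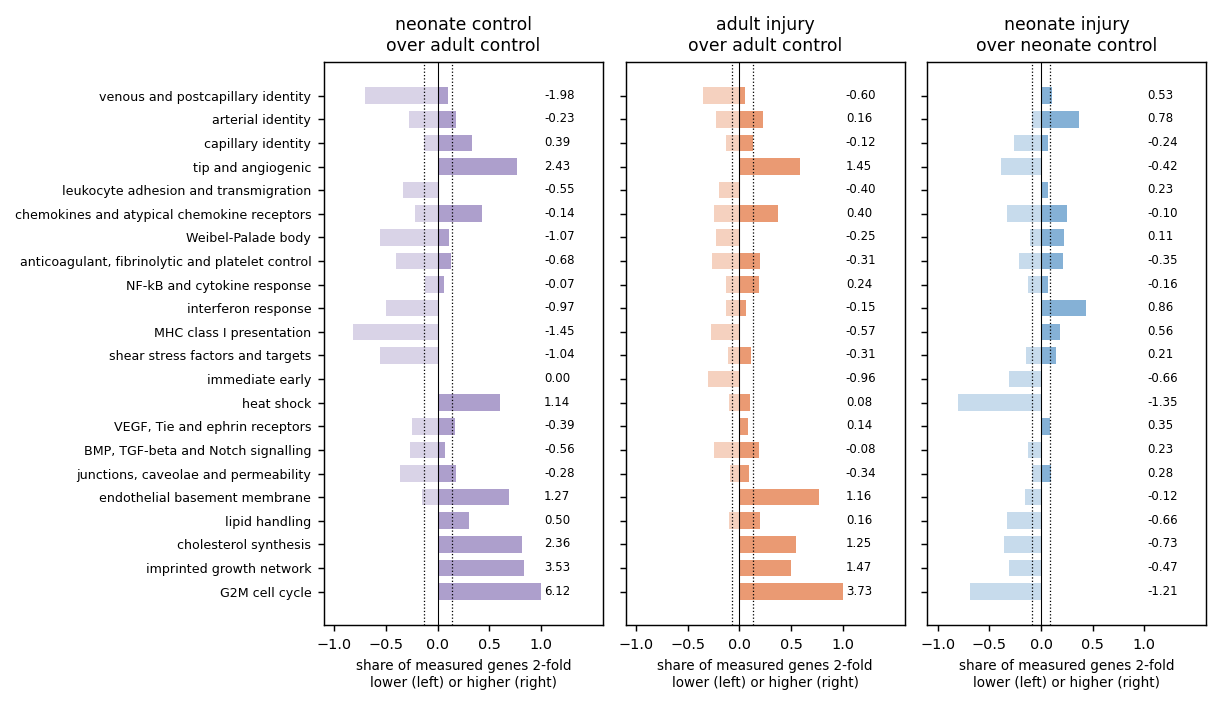
Share of the measured genes of each list that were at least 2-fold higher (right) or lower (left) in the 3 comparisons (x axis, a fraction of 1), with the list's median log2 ratio printed at the right and dotted lines at the share over all genes tested. Venous identity is mostly lower in neonate control and partly lower in adult injury, and interferon response is on the high side in neonate injury.

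Side by side, the injury ratios of 14 of the 19 venous genes measured at both ages had opposite signs. For 10 of them both counting intervals left out 0, and for 2 genes with the same sign, Aplnr and Icam1, they did too. In the remaining 7 an interval held 0 at one age or both. The same counts of signs were not made over all genes, so they cannot show whether the venous genes stand out. Vwf was at 1.91 in neonates and -1.44 in adults, Lrg1 at 0.69 (0.25 to 1.15) and -1.17 (-1.31 to -1.04) and Aplnr at 1.78 and 2.49. For Sele the neonatal ratio of 0.23 (-0.06 to 0.53) had no clear sign, against -1.71 in adults. Among genes of other lists, the storage granule gene Edn1 was at 2.1 and -0.83, the flow-induced gene Klf2 was lower at both ages as given above, and the junction gene Cldn5 was at -1.13 and 1.32. Over all genes measured in both, 221 of 9373 (2.36%) were at least 2-fold apart from their controls in opposite directions. This is a stricter condition than an opposite sign, and of the 19 venous genes only Vwf met it. With 1 library in each group, none of these differences was tested.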

How the data were processed

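The 4 10x libraries of digested mouse Achilles tendon, 1 per group, were analysed from the deposited UMI count matrices (33696 genes, 38780 barcodes). Per the file headers Cell Ranger 8.0.1 made them, on GRCm39, per the submitters' processing notes; other steps are not given in the sources used here. Groups came from the labels. The members and gene lists were chosen with earlier results of these data known. UMIs were summed over members and given as CPM with exact Poisson intervals. Log2 ratios had 0.5 counts added and exact intervals of the binomial split of the 2 counts, for genes with at least 20 UMIs in the 2 libraries, and 2-fold marks a count. Shares have exact binomial intervals. With 1 library per group no test was run. The calculation was checked on simulated data.

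Named genes were the 10 highest and 10 lowest ratios of genes that reached 50 CPM in 1 of the libraries, without gate, mitochondrial, ribosomal, predicted, hemoglobin, sex-linked and other cells' marker genes and possible free RNA, plus up to 4 members of each list with the largest ratios; others are named as chosen after their values were seen or stand for a list's direction. Of the genes this rule picks, 2 are not reported here. Against other blood endothelial barcodes the rule used the smallest or largest ratio of the 4 libraries. Doublets were scored in each library against 2 simulated doublets per barcode (2000 genes, 30 components) and marked at 0.8% per 1000 barcodes, with removal as an alternative. Of the list genes 1 was absent from the files, and 26 entries repeated a symbol, of which the earliest listed was used. Barcodes past the filter numbered 10429, 14885, 6113 and 4625, with medians of 10698, 5748, 9787 and 10170 UMIs. Promoters came from RefSeq on GRCm38.p6, a build other than that of the counts, and were matched by symbol; the table used had no entry for Vwf. Python 3.11.15, numpy 2.4.6, scipy 1.17.1, pandas 2.3.3, scikit-learn 1.9.0 and matplotlib 3.10.9 were used.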

Additional observations from a re-analysis of the deposited data

Results flagged for a closer look

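Genes that the naming rules pick for the injury comparisons are given here when injury set them at least 2-fold apart from control in opposite directions at the 2 ages. Each age has 1 injured and 1 control library, so the difference was not tested. The values are the neonatal log2 ratio minus the adult one. Where the adult ratio rests on 3 or fewer UMIs in adult control, it is given with its interval.

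The difference was positive, with the gene higher in neonate injury and lower in adult injury than in its control, for the storage granule protein Vwf at 3.35 and the rule gene Ackr1 at 3.87. The same held for the lipid transfer genes Pltp at 5.55 and Apoe at 3.87, the efflux pump Abcb1a at 3.96 and the Notch ligand Dll1 at 3.87. It also held for the growth factor Vegfc at 2.21 and for Pgm5 at 4.46 and Wipf3 at 5.01. Of the immune lists, H2-T23 at 4.07 and Ifit3 at 4.18 were in this class.

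The difference was negative, with the gene lower in neonate injury and higher in adult injury, for Cldn5 at -2.45, the capillary gene Btnl9 at -4.91, Unc5b at -4.2, the thrombin receptor F2r at -2.82 and the basement membrane genes Lamb1 at -3.32 and Nid2 at -2.39. It was also negative for the median of the G2M list at -4.94 and its members Mki67 at -4.51 and Cdc20 at -3.51. Top2a was at -5.39 with an adult ratio of 4.18 (2.76 to 6.71), Cdk1 at -5.72 with 3.93 (2.25 to 7.34) and Birc5 at -5.95 with 4.67 (2.64 to 10.58). Ccl2 at -5.07, Cxcl2 at -5.63, Timp1 at -5.51, Fhl2 at -5.6, Hsph1 at -2.55, Dlk1 at -3.95, Sqle at -3.89 and Cyp51 at -4.96 were negative too. Crabp2 stood at -7.92 with an adult ratio of 3.97 (1.87 to 9.9).

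In Selp-positive members 7 of these genes were no longer 2-fold apart at one age or both, or had no ratio. The neonatal ratio became 0.47 for Vegfc, 0.85 for Apoe, -0.89 for Ccl2, -0.98 for Cxcl2 and -0.76 for Top2a. Crabp2 had 0 UMIs in the Selp-positive members of both neonatal libraries and so no neonatal ratio there. The adult ratio became -0.94 for both Vegfc and Ifit3. By the measure given above, Ccl2, Cxcl2, Hsph1, Dlk1, Sqle and Cyp51 can be free RNA at both ages and Apoe in neonates. Mki67, Cdc20, Top2a, Cdk1, Birc5, Crabp2, F2r, Fhl2, Lamb1, Nid2 and Unc5b can be free RNA in adults.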

How the results depend on the processing

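The members rest on 1 library per group and on few UMIs of 2 genes. No paired analysis was possible because each group is a single library. With at least 1 UMI of Selp and Ackr1 the members were 0.710%, 1.4%, 3.99% and 3.52% of filtered and 10.5%, 12.1%, 23.8% and 22.6% of blood endothelial barcodes. With at least 3 they were 0.699% and 6.04% in neonate injury and 1.99% and 12.8% in adult injury. After thinning they were 0.231%, 0.653%, 2.70% and 1.72% of filtered barcodes, and Selp-positive members were 0.692% and 5.98% in neonate injury. Requiring 50 UMIs for a gene left 894 genes higher by age, 828 higher and 464 lower in adult injury, and 378 higher and 520 lower in neonate injury. With no minimum there were 4073 and 2853 by age, 4457 and 2937 in adult injury, 3520 and 3148 in neonate injury, and against other blood endothelial barcodes 161 and 131, since more or fewer genes are counted. The 81 genes lower in members in every library were 133 without members with G2M UMIs, 268 in Selp-positive members and 139 by the mean over cells, and the cause was not tested. Of 4264 gene ratios under the alternatives, 4 reversed. By age these were Flt4 from 1.21 to -0.20 (without members with G2M UMIs) and Cyp1b1 from -1.32 to 0.010 (mean over cells). In adult injury it was Ccl5 from 4.11 to -4.18 (rule after thinning), and in neonate injury Aqp7 from 1.16 to -0.076 (mean over cells). The cause was not tested. Another 640 moved and 3620 did not, and of 751 list medians 20 moved. The unmoved ratios include 357 and 393 under the other minimum counts, which leave a ratio as it is and could not move it. With the rule after thinning 175 of 350 ratios moved, and without members with G2M UMIs 144 of 346. By the mean over cells 126 of 393 moved, and within the Y-linked members 36 of 95. The gene ratios thus depend on these choices more than the pooled counts show. Selp-positive members, members with Y-linked UMIs and the rule after thinning were chosen for the gene comparisons after seeing the data.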

Other observations

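Shared controls limit how the age and injury values can be read together, but a level in every library needs no comparison. The levels of the interleukin 1 receptor chain Il1r1 in members were 125, 103, 582 and 486 CPM, with both adult libraries above both neonatal ones, and 63.1, 45, 55.7 and 175 CPM in other blood endothelial barcodes. The cytokine Il6 was at 262, 149.6, 145 and 346 CPM against 172, 66.8, 44 and 51.4 CPM, and the chemokine Cxcl10, which draws Cxcr3-bearing T cells, at 445, 284, 136 and 223 CPM against 253, 105, 36.8 and 30.7 CPM, so both were above the others in all 4 libraries. The water channel Aqp1 was at 717, 1636, 1602 and 1599 CPM, with neonate control alone low, and at 390.2, 585, 1044 and 676 CPM in other blood endothelial barcodes. The fatty acid binding protein Fabp4, of capillary and venous endothelium, was at 14066, 6528, 12479.5 and 5709 CPM, lower in each injured library than in its control, and at 10513, 5864, 6740.4 and 1757 CPM in the others. These genes were chosen after their values were seen.

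The venous fate gene Nr2f2 was at 287, 453, 485 and 361 CPM and its partner in venous identity Ephb4, the receptor of the arterial ligand ephrin B2, at 108, 143, 161 and 125 CPM. Neither was 2-fold apart in any of the 3 comparisons, with ratios of -0.75, -0.42 and 0.66 for Nr2f2 and -0.57, -0.36 and 0.40 for Ephb4 in the order age, adult injury and neonate injury.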
